A study of Mus musculus with 104 samples.

Results

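The cytosolic chaperonin TRiC, also called CCT, is built from subunits encoded by 8 mouse genes, Tcp1, Cct2, Cct3, Cct4, Cct5, Cct6a, Cct7 and Cct8. All probe sets annotated to 1 of these symbols and to no other gene were taken, which gave 23 of the 22626 probe sets on the array that are not array controls, and 8 of 12393 genes. Tcp1 and Cct5 had 1 probe set each, Cct6a, Cct7 and Cct8 had 2 each, Cct2 had 3, and Cct3 and Cct4 had 6 each. The question asked of them was whether the subunits moved together in lungs exposed to phosgene.

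The chaperonin is a double ring in which each ring holds 1 copy of every subunit, and it folds newly made proteins in a closed chamber at the cost of ATP. Actin and tubulin are its best known clients, and prefoldin and phosducin-like proteins hand clients over or tune its cycle. Because a ring needs every subunit, the subunits are usually made in balanced amounts, and cells that grow or move actively hold more of them. In yeast, the subunits corresponding to Tcp1, Cct2, Cct4 and Cct5 bind ATP more tightly than those corresponding to Cct3, Cct6a, Cct7 and Cct8, and they form opposite sides of the ring.

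Messenger RNA of whole mouse lung was measured on 104 oligonucleotide arrays (type MOE430A, a chip of short probes), 2 chips for each of 52 numbered lungs. The groups were 3 untreated lungs, 25 lungs of air-exposed controls and 24 lungs exposed to phosgene (CG in the labels), a toxic gas that damages the air-blood barrier. Each time, labelled 0.5, 1, 4, 8, 12, 24, 48 or 72, had 3 air and 3 phosgene lungs, except for 4 air lungs at 48 h. Reading the times as hours, and the phosgene label of 32 mg as an amount per volume of air, rests on knowledge of the study. The labels give no strain, sex, genotype or age, and they set the 17 groups apart by exposure and time. Hybridization day and chip lot also varied among the chips. The labels do not say that a numbered lung is 1 animal. The p-values therefore measure the spread between numbered lungs, which may in part be technical. Of the air lungs, 5 carry numbers apart from the others of their group: replicate 3 at 8 h, replicates 3 and 4 at 48 h, and replicates 2 and 3 at 72 h. Medians and calls of the average and of 8, 48 and 72 h are given with and without them. Levels within single lungs and correlations between subunits are given with them only. All lungs expressed lung epithelial genes strongly. Sftpb, a surfactant protein, ranged from 2163.4 to 5043.65 intensity units.

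In RefSeq (build GRCm38.p6) the genes lie on 8 chromosomes, so none is a neighbour of another. Tcp1 is at chr17:12916329-12925067, Cct2 at chr10:117050997-117063852, Cct3 at chr3:88297135-88321766 and Cct4 at chr11:22990593-23003336. Cct5 is at chr15:31590800-31601846, Cct6a at chr5:129787356-129846443, Cct7 at chr6:85451505-85468477 and Cct8 at chr16:87483325-87495869. The RefSeq promoter table held 9 windows for 7 of these genes, from 250 bases before a gene's start to 50 after it, with 2 windows each for Cct2 and Cct5. The 250 bases before the start are shown for 4 genes whose windows hold CCAAT or heat shock matches. Not shown are Tcp1, with a CCAAT box at -132, and Cct2, with a heat shock pair at -42 in 1 window. No link between these matches and the subunits' levels was tested. Capitals mark a CCAAT box, on either strand (ATTGG on the other), or a pair of heat shock factor units, the kind of site bound by HSF1 in stressed cells.
Cct7, chr6:85451255-85451504, plus strand: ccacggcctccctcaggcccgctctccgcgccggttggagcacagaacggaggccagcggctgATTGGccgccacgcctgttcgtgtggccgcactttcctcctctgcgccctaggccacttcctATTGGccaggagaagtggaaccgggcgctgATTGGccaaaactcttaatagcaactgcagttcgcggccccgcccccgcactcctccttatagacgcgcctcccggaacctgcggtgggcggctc
Cct3, chr3:88296885-88297134, plus strand: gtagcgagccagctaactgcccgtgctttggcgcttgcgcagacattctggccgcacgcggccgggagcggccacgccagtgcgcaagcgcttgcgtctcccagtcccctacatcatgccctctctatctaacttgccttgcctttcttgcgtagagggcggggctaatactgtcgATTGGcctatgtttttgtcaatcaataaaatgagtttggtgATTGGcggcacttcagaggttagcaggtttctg
Cct6a, chr5:129787106-129787355, plus strand: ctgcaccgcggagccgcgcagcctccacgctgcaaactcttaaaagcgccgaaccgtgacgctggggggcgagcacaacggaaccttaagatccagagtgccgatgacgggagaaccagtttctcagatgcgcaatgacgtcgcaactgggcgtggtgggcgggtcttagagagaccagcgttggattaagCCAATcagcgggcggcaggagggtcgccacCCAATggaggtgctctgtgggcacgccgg
Cct5, chr15:31601847-31602096, minus strand: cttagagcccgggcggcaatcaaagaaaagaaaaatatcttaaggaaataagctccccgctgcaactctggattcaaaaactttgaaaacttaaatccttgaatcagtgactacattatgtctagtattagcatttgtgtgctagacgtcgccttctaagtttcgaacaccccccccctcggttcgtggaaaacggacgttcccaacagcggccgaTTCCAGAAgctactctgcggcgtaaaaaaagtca
Motifs were searched on both strands of each whole window, and CCAAT was found in 4 of the 9 windows, those of Tcp1, Cct3, Cct6a and Cct7, against 37.4% of all 32851 mouse promoter windows of the same 300 bases. The heat shock pair GAANNTTC was in 1 of 9 windows, of Cct2, against 7.86% of all. The opposite pair TTCNNGAA was in 2 of 9, at -34 from the start in Cct5 and at 25 after it in Cct6a, against 8.52%. One or the other pair was in 3 of 9 windows, against 15.1% of all. None of the 9 held 3 alternating units in a row, which 0.603% of all windows do. The core CCGGAAG of ETS factors was in 3 of 9 windows (Tcp1, Cct2 and Cct8) against 8.86%, and the antioxidant core TGACNNNGC was in 3 of 9 (Tcp1, Cct2 and Cct6a) against 12.4%. These matches describe letters in the windows and are not evidence of binding.

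The intensities were scaled by the authors to the same trimmed mean on every chip. Most chaperonin probe sets were bright, and the brightest of each gene, which stands for the gene below, averaged from 266.5 for Cct8 to 981.8 for Cct3 over all lungs. These lay at the 82.5th to 96.9th percentile of all probe sets. A few were not: Cct4 1415868_at averaged 2.57, Cct8 1436973_at 3.93 and Cct3 1451915_at 34.5 intensity units. No filter on dim probe sets was applied, so all 23 were tested.

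Averaged over the 8 times, the chaperonin messages were higher in phosgene than in air lungs, by a small amount. In a linear model of all 17 groups (limma, log2 of intensity plus 16, Benjamini-Hochberg adjustment over all probe sets), 17 of 23 chaperonin probe sets were called higher at an adjusted p under 0.05 and 0 lower, and 9.35% of all probe sets were called higher. In whole lung, a changed number of cells of a type and a changed amount of RNA per cell cannot be told apart. The brightest probe set of each of the 8 genes was among the 17. Their averaged log2 changes ran from 0.13 for Cct7 to 0.30 for Cct3. The median over the 23 was 0.17, beside -0.03 over all probe sets. Of the 49 settings that leave out 1 lung each, all kept between 13 and 18 calls. Without the 5 air lungs numbered apart, 18 of 23 were called on average (4888 of all probe sets, either direction). The median of the 23 was then 0.23.

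The side of the ring that binds ATP tightly in yeast was described first. Tcp1, the founding member of the family, rose on average by 0.17 on the log2 scale (SE 0.04, adjusted p = 0.00110 by limma). Cct2 rose by 0.24 with its brightest probe set (1433535_x_at, SE 0.05, adjusted p = 4.76e-04 by limma), and by 0.26 and 0.22 with the other 2. Cct4, whose product touches actin during folding, rose by 0.17 with its brightest probe set (1415867_at, SE 0.04, adjusted p = 0.00415 by limma). Cct5, in which a human mutation causes a sensory neuropathy, rose by 0.14 (SE 0.03, adjusted p = 0.00132 by limma). On the opposite side, Cct3 rose by 0.30 with 1416024_x_at and by 0.39 with 1448178_a_at (SE 0.05, adjusted p = 5.57e-07 by limma), the largest average change among the 23. Cct6a rose by 0.16 (1423517_at) and 0.29 (1455988_a_at). Cct8 rose by 0.17. Cct7 rose by 0.13 with 1415816_at (SE 0.05, adjusted p = 0.0460 by limma) and by 0.17 with 1415817_s_at (SE 0.06, adjusted p = 0.0363 by limma). The calls of Cct7 were close to the threshold: with 1 lung left out in turn, that of 1415816_at was kept in 21 of 49 fits and that of 1415817_s_at in 35 of 49, while the brightest probe set of each other gene kept its call in 49 of 49. No difference between subunits or sides of the ring was tested.

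The 6 probe sets not called on average were 3 of Cct3, 2 of Cct4 and 1 of Cct8, and they include the 3 dim ones. Cct3 1449645_s_at changed by 0.20 on the log2 scale (adjusted p = 0.0710 by limma). Cct3 1451915_at had -0.15 (adjusted p = 0.0801 by limma), and it correlated negatively over the 52 lungs with the brightest Cct3 probe set (r = -0.25). The other uncalled ones lay between -0.04 and 0.07. Across lungs the 2 bright Cct3 probe sets 1416024_x_at and 1448178_a_at had r = 0.82, and Cct4 1415867_at and 1433447_x_at had r = 0.76. Cct4 1456572_x_at had r = -0.01 with 1415867_at. The probe sets of Cct3 and of Cct4 thus disagreed among themselves, and the cause was not tested. Probe sets whose name ends in x_at can pick up related transcripts, and these include the brightest ones of Cct2 and Cct3.

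By time, probe sets were called at 4, 8 and 12 h. Chaperonin probe sets called higher numbered 0 of 23 at 0.5 h (0.217% of all probe sets), 0 at 1 h (0.667%), 6 at 4 h (2.18%), 4 at 8 h (3.21%) and 1 at 12 h (1.04%). They numbered 0 at 24 h (0.769%), at 48 h (2.36%) and at 72 h (1.68%). None was called lower at any time. At an unadjusted p under 0.05 limma gave 0 of 23 at 0.5 h, 2 at 1 h, 6 at 24 h, 0 at 48 h and 1 at 72 h. The share of all probe sets at that unadjusted threshold was not counted. The median log2 change of the 23 was -0.02 at 0.5 h, 0.12 at 1 h, 0.31 at 4 h, 0.28 at 8 h, 0.35 at 12 h, 0.22 at 24 h, 0.07 at 48 h and 0.14 at 72 h. Over all probe sets the median lay between -0.07 and 0.01. Without the 5 air lungs numbered apart, the median of the 23 was 0.37 at 8 h, 0.22 at 48 h and 0.26 at 72 h, with 21 of 23 positive at each of these times and 0 called at 48 and 72 h. When each chip was centred on its median instead, the 4 h median of all probe sets moved to 0.04 and that of the chaperonin to 0.41.

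**Figure D1:**
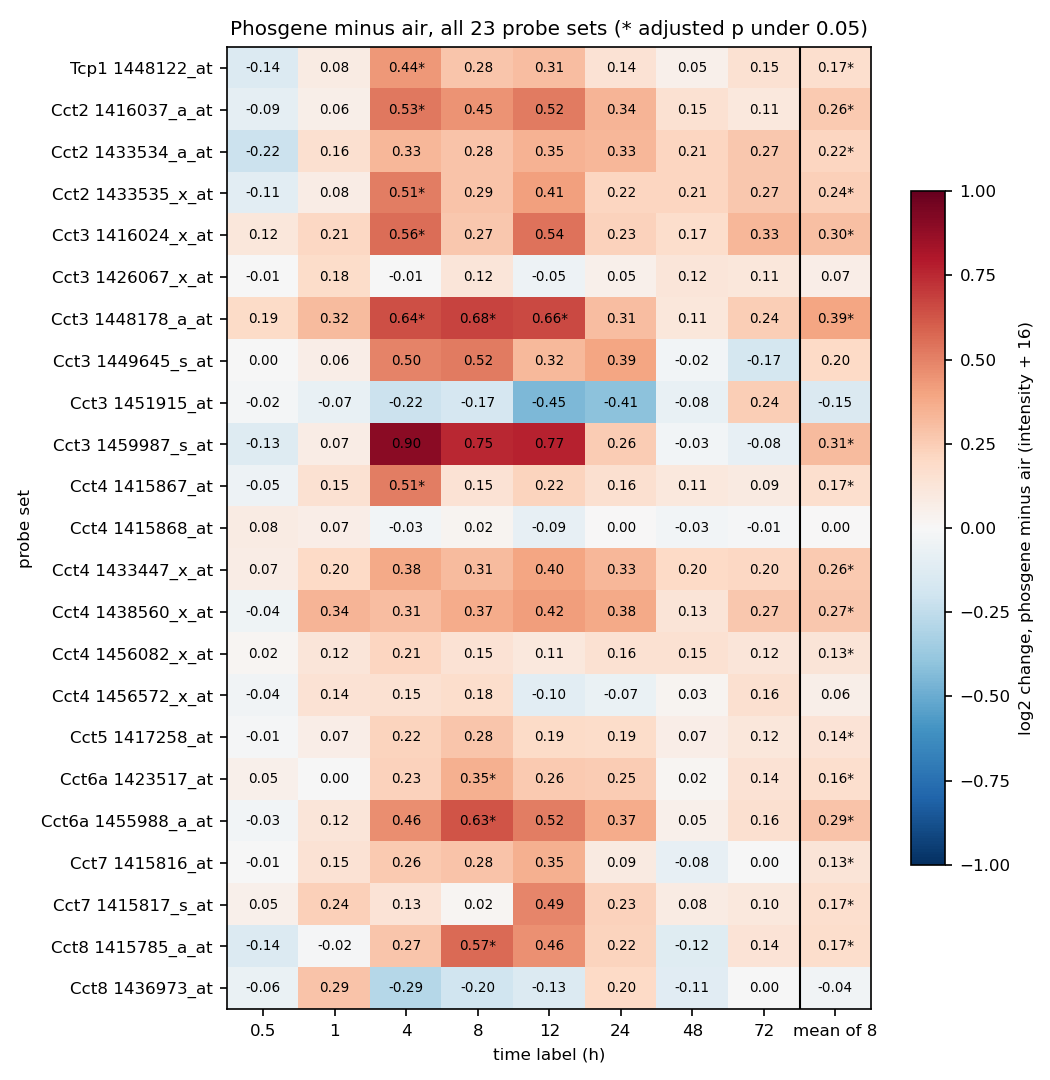
Log2 change (phosgene minus air, log2 of intensity plus 16) of all 23 chaperonin probe sets (rows) at each of the 8 times and as the mean of the 8 (columns), with an asterisk where the adjusted p was under 0.05. Called changes sit at 4, 8 and 12 h and in the column of means, where 17 of 23 carry an asterisk, and all are positive.

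No chaperonin probe set was called for a phosgene effect that varied with time. The F test over the 8 times called 0 of 23 (2.74% of all probe sets), and the smallest adjusted p was 0.184, for Cct8 1415785_a_at. The 7 steps between neighbouring times called 0 of 23 each (0.00947% of all tests over the 7 steps). At an unadjusted p under 0.05 the step from 1 to 4 h gave 5 of 23 and that from 4 to 8 h gave 1. No share over all probe sets was counted for these either. The absence of calls at 48 and 72 h is therefore not shown to differ from the calls at 4 h.

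At 4 h Tcp1, Cct2, Cct3 and Cct4 rose, from both sides of the ring. These calls leaned on single lungs: without air replicate 2, or without phosgene replicate 2, 1 probe set was called. With 1 of the 6 lungs left out in turn, Cct3 1448178_a_at kept its call in 5 of 6 fits, Tcp1 and Cct4 in 4 of 6, and both Cct2 probe sets and Cct3 1416024_x_at in 1 of 6. Tcp1 read 725.85, 795.6 and 747.6 intensity units in the phosgene lungs, against 577.1, 526.05 and 557.85 in air. Every phosgene lung was above every air lung, and the log2 change was 0.44 (SE 0.11, fold 1.35, adjusted p = 0.0138 by limma). Untreated lungs read 747.65, 698.5 and 673.7 for Tcp1. The phosgene lungs overlapped the untreated ones, while all 3 air lungs were below them.

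Cct4 1415867_at read 695.7, 718.65 and 679.35 in phosgene lungs and 576.45, 384.7 and 512.5 in air lungs at 4 h. The groups did not overlap, the second air lung was the lowest of all, and the log2 change was 0.51 (SE 0.12, adjusted p = 0.0112 by limma). Untreated lungs read 539.65, 576.75 and 535.15, all below the phosgene lungs. Here the untreated lungs were close to the air lungs, unlike for Tcp1.

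Cct2 1433535_x_at read 942, 953.4 and 911.4 in phosgene lungs and 696.75, 606.1 and 651.55 in air lungs at 4 h. The groups were far apart, with a log2 change of 0.51 (SE 0.14, adjusted p = 0.0311 by limma). Cct2 1416037_a_at also rose, by 0.53 (SE 0.16, adjusted p = 0.0468 by limma), close to the threshold. Untreated lungs read 823.65, 725.95 and 740.9 with 1433535_x_at, between the other groups.

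Cct3 1448178_a_at, the only chaperonin probe set called at 3 times, read 1019.25, 950 and 971.5 in phosgene lungs and 671.3, 645.55 and 566.75 in air lungs at 4 h. The log2 change was 0.64 (SE 0.16, fold 1.56, adjusted p = 0.0110 by limma). Cct3 1416024_x_at rose by 0.56 (SE 0.16, adjusted p = 0.0345 by limma). The largest change at 4 h, 0.90 for Cct3 1459987_s_at, was not called (SE 0.32, adjusted p = 0.109 by limma), and its air lungs ranged from 130.85 to 318.7. At 4 h all phosgene lungs were above all air lungs for 13 of 23 chaperonin probe sets (8.63% of all probe sets).

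Cct5, Cct6a, Cct7 and Cct8 were not called at 4 h by any probe set. Their brightest probe sets had log2 changes of 0.22, 0.23, 0.26 and 0.27, with adjusted p from 0.188 to 0.327 by limma. Cct5 read 664.4, 691.55 and 660.9 in phosgene lungs and 625.3, 542.1 and 561.9 in air lungs, without overlap. Cct7 1415816_at read 527.85, 700.35 and 542.45 against 629.05, 401.55 and 449.7, with overlap through 1 air lung.

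At 8 h probe sets of Cct3, Cct6a and Cct8 were called higher. Cct7, on the same side of the ring as these, was not called, and the sides were not compared. The brightest probe sets of all 8 genes had positive log2 changes at 8 h, from 0.15 to 0.57. Cct8 1415785_a_at read 361.05, 289.1 and 293.6 in phosgene lungs and 175, 199.85 and 250.25 in air lungs. The groups did not overlap, and the log2 change was 0.57 (SE 0.15, adjusted p = 0.0150 by limma). Cct6a 1455988_a_at read 665.3, 508.6 and 455.85 against 292.2, 321.05 and 436.05, a log2 change of 0.63 (SE 0.14, adjusted p = 0.00462 by limma). Cct6a 1423517_at rose by 0.35 (SE 0.11, adjusted p = 0.0459 by limma). Cct3 1448178_a_at rose by 0.68 (SE 0.16, fold 1.60, adjusted p = 0.00446 by limma), with phosgene lungs at 1186.3, 963.15 and 902.4 and air lungs at 532.95, 650.2 and 701.6. The brightest Cct3 probe set, 1416024_x_at, was not called at 8 h. It read 944.95, 1071.4 and 995.85 in phosgene lungs and 731.8, 843.7 and 892.1 in air lungs.

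The 8 h result leaned on single lungs. In Tcp1 the air lungs of 8 h read 554, 579.25 and 795.6, and the last, one of the 5 numbered apart, lay among the phosgene lungs at 807.05, 783.75 and 730.65. Tcp1 was not called at 8 h, with a log2 change of 0.28 (SE 0.11, adjusted p = 0.128 by limma). Without the 5 air lungs numbered apart, 7 of 23 chaperonin probe sets were called at 8 h (972 of all probe sets, either direction). Without phosgene replicate 1, the highest lung for each probe set called at 8 h, 0 were called. On the 2 hybridization days that held chips of both groups at 8 h, with 1 chip a group and the air chips from the lung numbered apart, the median difference of the 23 was -0.01 and 0.03. Phosgene lungs were all above air lungs for 9 of 23 (8.25% of all probe sets).

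At 12 h 1 chaperonin probe set was called, Cct3 1448178_a_at, with a log2 change of 0.66 (SE 0.16, adjusted p = 0.0171 by limma). Phosgene lungs read 1035.45, 772.15 and 850.9 and air lungs 549.8, 551.15 and 546.2, a wide gap. The median change of the 23 was nonetheless as large as at 4 h. By limma 16 of 23 had an unadjusted p under 0.05, a count with no share over all probe sets to set it against. Phosgene lungs were all above air lungs for 14 of 23 (7.54% of all probe sets). The call was kept in 2 of 6 fits with 1 lung left out, and 0 were called without any 1 of the 3 air lungs or without phosgene replicate 1. Without the 5 air lungs numbered apart, none of which is a lung of 12 h, 6 were called. Of all probe sets, 337 were called at 12 h in that fit, in either direction.

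At 0.5, 1, 24, 48 and 72 h no chaperonin probe set was called. Phosgene lungs were all above air lungs for 0 of 23 chaperonin probe sets at 0.5 h (3.38% of all probe sets), 3 at 1 h (4.68%), 11 at 24 h (7.75%), 0 at 48 h (6.92%) and 1 at 72 h (9.39%). At 48 h Tcp1 read 673.2, 611.6, 784 and 867.65 in air lungs and 765.6, 741.55 and 762.35 in phosgene lungs. The 2 highest of these 7 lungs were the air lungs numbered apart. On the hybridization days at 48 h that held those 2 air lungs, the median difference of the 23 was -0.16 and -0.14, and on the day that held air replicate 1 it was 0.22. At 72 h it was 0.39 and 0.32 on the 2 days with chips of both groups. Both days set 1 chip of air replicate 1 against 1 chip of phosgene replicate 3. Those were the lowest air and the highest phosgene lung of 72 h in the subunit average given below, at -0.21 and 0.26. At 4 h the median difference was 0.34 and 0.33, on both days with 1 chip of phosgene replicate 1. All 6 probe sets called at 4 h were positive on both days. They were picked from these same lungs, so their sign adds no support.

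**Figure D2:**
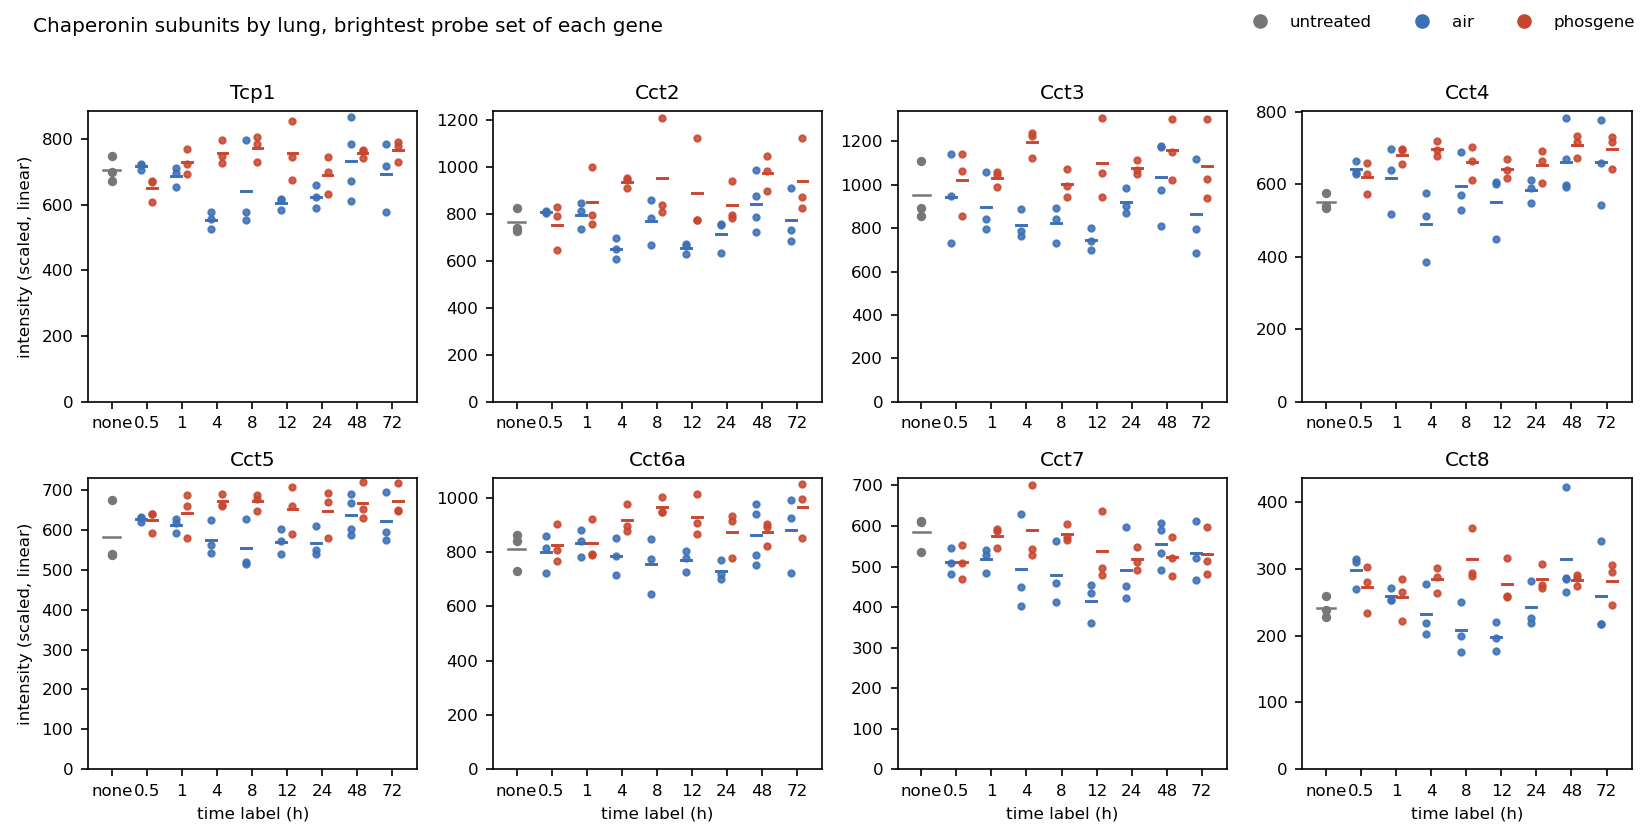
Intensity (linear, scaled per chip, mean of 2 chips) of the brightest probe set of each subunit in every lung, by time label, with untreated lungs in grey at the left, air in blue, phosgene in red and a line at each group mean. In most panels the air lungs of 4 to 12 h sit at the bottom, and the phosgene lungs of those times sit near the level of the later phosgene lungs.

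How the levels of air lungs ran matters for these differences, so the 8 subunits were put on 1 scale, each as log2 minus its own mean over the 52 lungs, and averaged within a lung. Group means of this subunit average were lowest in air at 12 h, at -0.25 (SD 0.08, n = 3), then in air at 4 h, at -0.22 (SD 0.14, n = 3), at 8 h, at -0.16 (SD 0.19, n = 3), and at 24 h, at -0.13 (SD 0.10, n = 3). Untreated lungs stood at -0.05 (SD 0.08, n = 3), air at 1 h at -0.03 and air at 0.5 h at 0.01. The highest groups were phosgene at 4 h, at 0.16 (SD 0.06, n = 3), at 8 h, at 0.14 (SD 0.09, n = 3), at 48 h, at 0.13 (SD 0.07, n = 3), and at 72 h, at 0.13 (SD 0.13, n = 3). Phosgene at 12 h followed with 0.09 (SD 0.15, n = 3), air at 48 h with 0.08 (SD 0.17, n = 4) and phosgene at 24 h and at 1 h with 0.06 each. Between these and the untreated lungs lay air at 72 h and phosgene at 0.5 h, both at -0.02. Neighbours in this order differed by less than the larger of their SDs, and the order is a description. In air at 48 h, replicates 3 and 4, which are numbered apart, stood at 0.25 and 0.20. Replicates 1 and 2 of that group stood at -0.08 and -0.06.

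Air lungs were not called different from untreated lungs. Over the 8 times, 0 of 23 chaperonin probe sets passed at any time (0.206% of all tests over the 8 times), and the F test over the air groups called 0 of 23 (0.592% of all probe sets). At an unadjusted p under 0.05 limma gave 4 of 23 at 4 h, 2 at 8 h, 7 at 12 h and 4 at 24 h. The share of all probe sets at this unadjusted threshold was not counted. After adjustment, 126 of all probe sets were called higher and 126 lower in air at 12 h. The smallest adjusted p was 0.0675, for Cct7 1415816_at at 12 h, with a log2 change of -0.48 and air lungs at 434.05, 454.55 and 359.6 beside untreated lungs at 609.15, 534.65 and 611.95. The medians of the 23 (air minus untreated) were -0.07 at 4 h, -0.07 at 8 h and -0.09 at 12 h, while over all probe sets they were 0.07, 0.04 and 0.08.

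Set against untreated lungs in place of air, the averaged phosgene effect called 3 of 23 chaperonin probe sets higher (2.59% of all probe sets). They were Cct2 1433534_a_at, Cct3 1448178_a_at and Cct4 1456082_x_at, and none of them is the brightest probe set of its gene. No brightest probe set was called, with adjusted p by limma from 0.0776 for Cct4 to 0.778 for Tcp1. The median log2 change of the 23 was 0.21, but only 3 untreated lungs stood on the control side. Cct7 1415816_at turned to -0.10. Against the mean of the 9 control groups, a setting chosen after the values were seen, 16 of 23 were called on average (9.67%). In that setting 2 were called at 4 h (2.85%), both of Cct3, 6 at 8 h (5.67%) and 1 at 12 h (2.04%). The 4 h calls of Tcp1, Cct2 and Cct4 were not made in that setting, where their log2 changes were 0.19 for Tcp1, 0.30 and 0.32 for Cct2 and 0.24 for Cct4.

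Within single lungs the subunits stood on the same side of their own means more often in some groups than in others. All 8 were above their means in 11 of 52 lungs and all 8 below in 10 of 52. The 11 were 8 phosgene lungs, of 4 h and later, and 3 air lungs, and these 3 are among those numbered apart (replicates 3 and 4 of 48 h and replicate 2 of 72 h). All 3 phosgene lungs of 4 h were among the 11. The 10 were all air lungs, 9 of them among the 12 lungs of 4 to 24 h and 1 of 72 h. No phosgene or untreated lung had all 8 below.

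**Figure D3:**
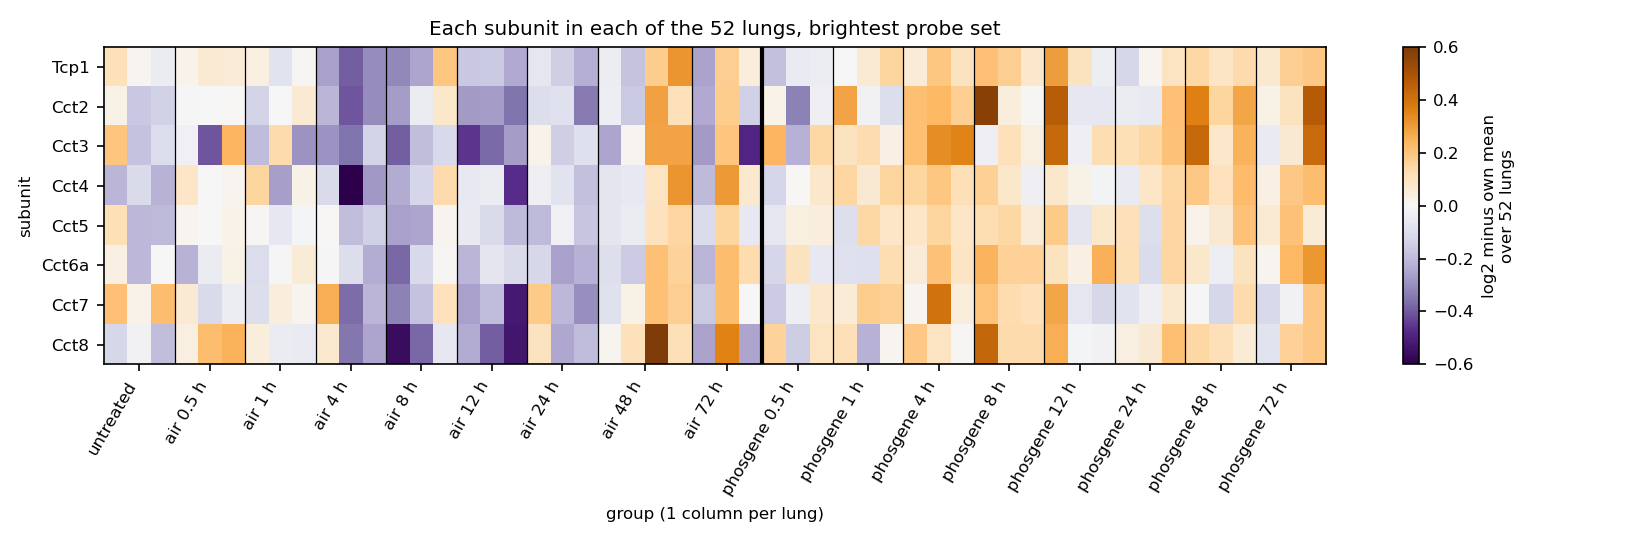
Log2 level of each subunit (rows, brightest probe set) minus its own mean over 52 lungs, with 1 column per lung, grouped as untreated, air and phosgene in order of time. Columns of one colour are lungs in which the subunits stood on the same side, as in most air lungs of 4 to 24 h (below the mean) and the phosgene lungs of 4 h (above it).

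Over the 52 lungs each subunit ran with the mean of the other 7, described here by correlation with no test. These points share chips, scaling and groups, and the 8 genes were chosen as 1 complex. Pearson's r was 0.86 for Tcp1 (rho 0.84), 0.84 for Cct2 (0.87), 0.79 for Cct5 (0.80), 0.78 for Cct8 (0.72), 0.77 for Cct4 (0.78), 0.73 for Cct6a (0.73), 0.73 for Cct7 (0.65) and 0.71 for Cct3 (0.72). The median gene had r = -0.14 with such a mean. Ranked among 12386 genes, Tcp1 and Cct2 were at rank 1, Cct5 and Cct8 at 14, and Cct3 was last at rank 44. Without the 2 lungs farthest from the median, r ran from 0.68 to 0.84.

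The 28 pairs of subunits all had positive r over the 52 lungs, from 0.52 for Cct3 with Cct4 to 0.81 for Tcp1 with Cct4, with a median of 0.64. Pairwise r was lower among the 24 phosgene lungs alone, where the median pair had r = 0.37 and the lowest, Cct3 with Cct6a, 0.11. Ranks there ran from 2 for Cct2 to 499 for Cct5. Among the 28 air and untreated lungs the median pair had r = 0.67, and ranks had a similar range, from 7 for Cct2 to 408 for Cct3. As deviations from group means, which remove the groups' differences, r with the other 7 ran from 0.52 for Cct3 to 0.78 for Tcp1. The difference between phosgene and control lungs was not tested.

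**Figure D4:**
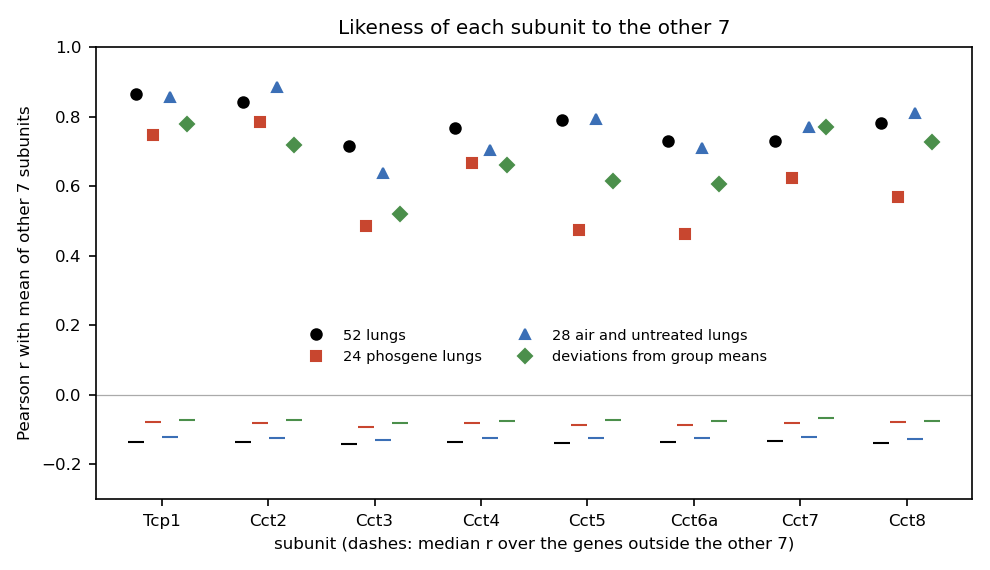
Pearson r of each subunit with the mean of the other 7, over all 52 lungs, the 24 phosgene lungs, the 28 air and untreated lungs, and as deviations from group means, with dashes at the median r over the genes outside the other 7. All symbols stand above 0.46, and all dashes lie below 0.

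The genes whose level was most like the mean of the 8 subunits over the 52 lungs were Psma6 (r = 0.86), Cops5 (0.84), Txnl1 (0.83), Uso1 (0.82), Gdi2 (0.81), Rbbp7 (0.81), Hint1 (0.81), Psmc2 (0.81), Epcam (0.81) and Iars (0.80). Psma6 and Psmc2 are proteasome subunits, Cops5 is a subunit of the COP9 signalosome, and Iars charges transfer RNA with isoleucine. All 10 were called higher on average, and Psmc2, for one, had an averaged log2 change of 0.39 (adjusted p = 4.76e-06 by limma). They were picked over lungs that include the phosgene and air groups, so these calls add no support. As deviations from group means, Psma6, Cops5, Uso1 and Psmc2 were again among the 10 most alike. The others of those 10, Farsb, Stx3, Anp32b, Psmb1, Rab7 and Eif2b2, were not called on average.

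Heat shock chaperones were described beside the chaperonin by counts and medians, and no test compared the lists. Of 18 heat shock genes measured, 3 were higher at 0.5 h and 10 at 1 h, when no chaperonin probe set was called, with medians of 0.29 and 0.89 on the log2 scale. At 4 h 15 were higher, at 8 h 14, at 12 h 2 and at 24 h 2, with medians of 1.17, 1.02, 0.21 and 0.08, the last 2 below those of the chaperonin. Hspa1b, an inducible HSP70, rose by 5.39 at 4 h (SE 0.38), Hspa1a by 5.24 and Dnajb1, its co-chaperone, by 2.95. By their brightest probe sets the 8 chaperonin genes had medians of 0.35 at 4 h, 0.28 at 8 h, 0.33 at 12 h and 0.20 at 24 h. Of 34 proteasome genes, 11 were higher at 4 h, 14 at 8 h and 12 at 12 h, with medians of 0.26, 0.44 and 0.50, and 27 were higher on average. Psma5 rose by 1.18 at 4 h, Psmd12 by 0.88 and Psmd11 by 0.82.

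Partners and clients of the chaperonin were described in the same way. Of 8 prefoldin and phosducin-like genes, 0 were called from 0.5 to 24 h, 1 was higher at 48 h and 2 at 72 h, and on average Pfdn1, a prefoldin subunit (0.22), and Txndc9, a phosducin-like protein (0.18), rose. Cct6b, the subunit made mainly in testis, was not called, with 0.10 on average. Of 14 actin and tubulin genes, 1 was called higher at 4 h, Tuba4a, by 1.03 (SE 0.17), 3 were higher and 1 lower at 8 h, 3 were higher at 12 h, and on average 6 were higher and 1 lower. Of 5 tubulin folding cofactors, 1 was called at 8 h and 2 on average. Of 8 other clients, 0 were called at 4, 8 or 12 h, 1 was higher and 1 lower at 48 h, 1 was higher at 72 h, and on average 2 were higher and 1 lower. The median over all genes was -0.08 at 4 h, -0.07 at 8 h and -0.06 at 12 h.

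**Figure D5:**
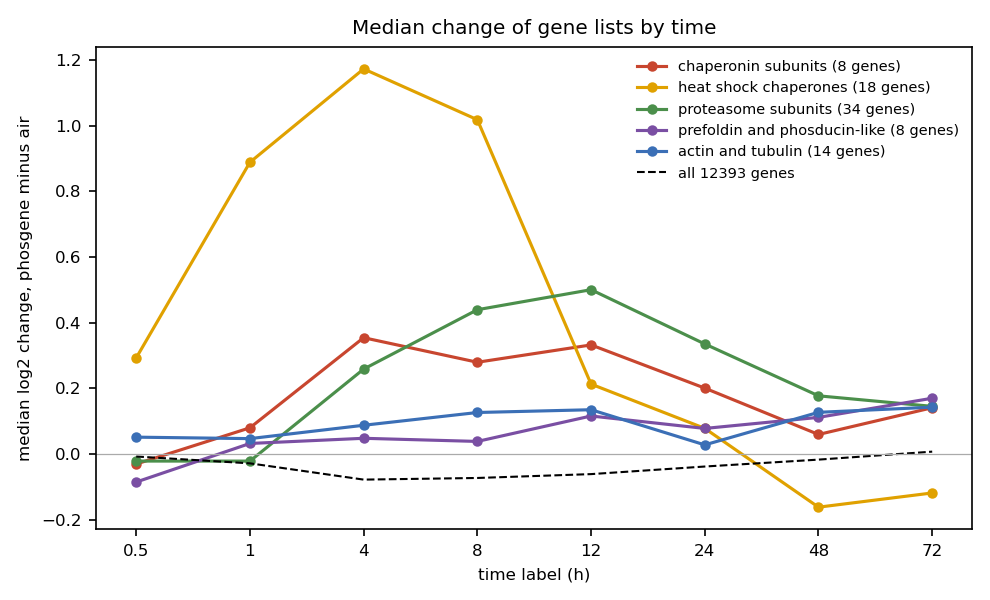
Median log2 change (phosgene minus air) at each time for the 8 chaperonin genes and 4 other gene lists, with all 12393 genes as a dashed line. The heat shock line stands at 1.17 at 4 h and falls back by 12 h, while the chaperonin line stays between 0.28 and 0.35 from 4 to 12 h.

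Markers of other cell types moved with the phosgene groups, and their part in the chaperonin result was not tested. Of 6 neutrophil genes, 3 were higher at 4 h, S100a8 by 1.89 on the log2 scale, and 4 at 8 h, and their summed level ran from 1068.6 to 2772.7 in phosgene and 522.85 to 806.25 in air lungs at 4 h. At 8 h it ran from 1097.7 to 4334.9 in phosgene and 541.85 to 684.9 in air lungs. Of 5 endothelial genes all were lower on average, with sums of 4274.3 to 4540.35 in phosgene and 5493.45 to 6525.95 in air lungs at 4 h. Of 6 genes of dividing cells, 0 were called from 0.5 to 24 h, 6 were higher at 48 h and 5 at 72 h, with medians of 1.31 and 1.14, and 3 were higher on average. Of 6 macrophage genes 0 were called at 4, 8 or 12 h, 1 was lower at 24 h, and 1 was higher at 48 h and at 72 h. On average 3 of 3 B cell genes, 2 of 3 T and NK cell genes and 2 of 3 red cell genes were lower. So were 2 of 6 lung epithelial genes and 2 of 4 heart muscle genes, and none of these 5 lists had a gene called higher on average. The log2 ratio of the 3′ to the 5′ probe set of Gapdh, a gauge of RNA length, had a median of 0.35 in phosgene and -0.29 in air lungs at 4 h, with overlapping ranges of -0.33 to 0.73 and -0.32 to 0.32. The medians were -0.10 and -0.05 at 8 h and -0.26 in both groups at 12 h. With this ratio as a covariate 7 of 23 chaperonin probe sets were called at 4 h (969 of all probe sets, either direction). The median change of the 23 was then 0.23.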

How the data were processed

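Whole-lung messenger RNA was measured on 104 chips, 2 per lung. The deposited values are linear intensity values that the authors scaled per chip, since the mean left after dropping 2% of values from both tails is 150.03 to 150.04 on all; the algorithm is not given in the sources used here. Deposited chip settings (unit other) gave 11 hybridization days for 97 chips and 3 lots for 95. To each intensity 16 was added, log2 was taken, and the chips of a lung were averaged (r of 0.96 to 0.98 between them). The deposited data hold no log2 values. The 64 array controls were left out, and 22626 probe sets, none filtered, were fitted with limma, 1 mean per group for 17 groups, with variances moderated along mean intensity. The p-values are 2-sided and adjusted by Benjamini-Hochberg over each comparison. The number of arrays limits the precision.

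The 8 genes, the gene lists and the tests were chosen with earlier results of these data known. Named outside the 8 genes are the 10 genes most correlated with their mean and, of each list, up to 3 called genes with the largest change at 4 h, the time with most calls; genes of lists named at other times, cell markers and Sftpb were chosen after their values were seen. Probe sets were named from the platform annotation (20380 carry 1 symbol, 691 several and 1555 none) and sequences came from RefSeq (GRCm38.p6). Fits were tested on simulated data. Alternatives changed the normalization, offset, filter, probe set, chip, blocks, controls or lungs. Software was limma 3.58.1 in R 4.3.3, and pandas 2.3.3, numpy 2.4.6, matplotlib 3.10.9 and scipy 1.17.1 in Python 3.11.15.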

Additional observations from a re-analysis of the deposited data

Results flagged for a closer look

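Cct8 1415785_a_at read 423.2 intensity units in 1 air lung of 48 h, replicate 3, while the other 3 lungs of that group read 265.8 to 285.95. This lung lay apart from the rest by Dixon's 95% criterion for groups of 4 to 10 lungs, which only the air group of 48 h meets in size. It was the only one of 23 chaperonin probe sets flagged there, and chance flags about 1 in 20. The lung is one of the 5 numbered apart.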

How the results depend on the processing

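The 17 calls on average stayed between 13 and 18 when any 1 lung was left out, and became 12 with chip B alone, 8 of 8 with the brightest probe set of each gene, 16 against all control groups and 3 against untreated lungs, where Cct7 1415816_at turned to -0.10. The calls of single times were less stable, and the cause was not tested. The settings also moved the calls over all probe sets, given here in either direction. At 12 h these numbered 722 with day as a term, 825 with lot and 459 with the Gapdh ratio. The main fit called 235 higher and 87 lower at 12 h. With the lungs of that time alone, 200 were called at 8 h and 65 at 12 h. At 4 h, 3 were called with chip A alone, 3 with chip B alone, 1 against untreated lungs and 2 against all 9 control groups, and leaving out 1 lung gave 1 to 5, with 1 without air replicate 2 and 1 without phosgene replicate 2. At 8 h, 2 were called with brightest probe sets, 1 with chip B alone, 7 without the 5 air lungs numbered apart, 1 against untreated lungs and 0 with the lungs of that time alone; leaving out 1 lung gave 0 to 7, with 1 without air replicate 1, 2 without air replicate 2 and 7 without air replicate 3. At 12 h, 2 were called after quantile normalization, 2 with the filter on dim probe sets, 0 with brightest probe sets, 0 with chip A alone, 2 with day as a term, 7 with lot as a term, 3 with the Gapdh ratio, 6 without the 5 air lungs and 0 with that time alone; leaving out 1 lung gave 0 to 2, and 0 without any air lung or phosgene replicate 1.

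Of the times with 0 calls, 24 h had 1 with day as a term (746 of all probe sets, either direction). Against untreated lungs 1 was called at 24 h (622), and with lot as a term 1 at 72 h (307). Against all 9 control groups, 1 was called at 1 h (664), 4 at 48 h (2233) and 1 at 72 h (2087). The change of the effect with time called 1 with day, 2 with lot, 1 with the Gapdh ratio and 2 without the 5 air lungs. No share over all probe sets was counted under these settings for this test or for the tests of air that follow. Air against untreated called 1 with day and 3 with lot, and 0 to 1 with 1 lung left out, 1 without air replicate 1 of 4 h. The change with time in air called 1 with chip A alone, 2 with day, 4 with lot, 2 with the Gapdh ratio and 1 without the 5 air lungs, and 0 to 2 with 1 lung left out, 2 without air replicate 3 of 8 h and 1 without air replicate 2 of 72 h. The median r of a subunit with the other 7, 0.77 over the 52 lungs, was 0.60 in phosgene lungs, 0.69 as deviations from group means, 0.68 after quantile normalization, 0.85 with chips centred on their medians and 0.56 as deviations after quantile normalization, a setting chosen after the values were seen.

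With the chip letter as a replicate block and the lung as a random block (correlation 0.29), 7 were called at 8 h and 6 at 12 h. Of all probe sets, 2102 were called at 8 h and 760 at 12 h in that fit, in either direction. It also called 4 for the change with time, 2 for air against untreated and 6 for the change with time in air. The letter pairs chips and not lungs, and for 56 of 104 chips the title gives the other letter, so these extra calls add no support.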
